A study of Mus musculus with 8 samples.

Results

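Immediate early genes are those that a cell transcribes first after a stimulus. The group described here was chosen by name and holds 10 of them: Fos, Fosb, Jun, Junb, Egr1, Ier2, Atf3, Nr4a1, Zfp36 and Dusp1. Of these, 9 are among the 13305 genes in the count table from whole bone marrow (BM) of mice with acute myeloid leukemia (AML). Fosb is not among the listed genes, of which none has fewer than 106 counts over all mice, and it was not analysed here. The rule for the group names genes and uses no measured value, but the members were chosen with earlier results of these data known.

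The study asked how the dosage of Gab2, an adaptor protein that passes signals from receptor tyrosine kinases to the RAS-ERK and PI3K pathways, shapes AML in the mouse. RNA was sequenced from freshly isolated BM of 3 AML WT mice (Gab2+/+), 2 AML HET mice (Gab2+/-) and 3 AML KO mice (Gab2-/-), with 1 library for each mouse. All 8 animals were of strain C57BL/6N, carried the internal tandem duplication on both alleles of Flt3 (Flt3ITD/ITD), had lost 1 allele of Dnmt3a (Dnmt3a+/-) and expressed Cre from the interferon-responsive Mx1 promoter (Mx1-Cre), so no group here lacks leukemia-driving alleles. The floxed Dnmt3a allele recombined without injection of the Cre inducer pIpC, and the age of the sequenced mice is not given in the sources used here. In the Gab2 knockout allele a cassette stands in for several exons, so reads can still fall on the exons that are left.

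In cell biology, immediate early genes are the readout of signals that reach the nucleus within minutes. ERK and p38 kinases switch on factors that already sit on their promoters, mainly SRF with its ELK partners and CREB, and no new protein is needed for the first transcripts. These transcripts decay quickly. Fos and Jun family proteins pair into the AP-1 transcription factor, while Zfp36 and Dusp1 shut the response down. In marrow, growth factors and inflammatory signals induce them, and so do the dissection and flushing of tissue, which is why the values of single mice are given below before each comparison.

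Promoter sequence was taken from RefSeq (GRCm38.p6) as the 250 bases before each transcription start. The set of member windows covers 8 of the 10 members. Ier2 and Egr1 were left out of this set, so the motif counts of members say nothing about them. The 5 windows below are shown because Jun and Atf3 are among the members with no overlap between AML WT and AML KO mice, Fos and Dusp1 are the most variable members, and Nr4a1 has the most half-site matches. All run 5′ to 3′ toward the start site. Capitals mark matches to the CREB site (CRE) TGACGTCA, to its half-site TGACG on either strand (CGTCA when read from the other strand) and to the Jun-type site TGACATCA.
Jun (chr4:95052223-95052472, minus strand): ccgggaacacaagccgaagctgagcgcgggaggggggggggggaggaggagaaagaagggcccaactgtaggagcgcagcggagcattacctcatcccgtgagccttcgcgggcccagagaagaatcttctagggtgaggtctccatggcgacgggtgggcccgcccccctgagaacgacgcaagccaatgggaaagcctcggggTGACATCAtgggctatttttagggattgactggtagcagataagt
Atf3 (chr1:191183334-191183583, minus strand): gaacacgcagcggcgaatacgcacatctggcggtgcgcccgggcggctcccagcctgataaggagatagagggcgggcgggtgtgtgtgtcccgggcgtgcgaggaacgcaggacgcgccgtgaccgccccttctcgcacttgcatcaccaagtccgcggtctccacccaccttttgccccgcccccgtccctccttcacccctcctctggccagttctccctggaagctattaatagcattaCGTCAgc
Fos (chr12:85473640-85473889, plus strand): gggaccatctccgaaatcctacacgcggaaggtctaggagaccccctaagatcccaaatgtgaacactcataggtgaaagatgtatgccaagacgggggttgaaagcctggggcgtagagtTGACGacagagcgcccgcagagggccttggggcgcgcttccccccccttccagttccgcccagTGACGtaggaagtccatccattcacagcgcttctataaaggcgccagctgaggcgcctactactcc
Dusp1 (chr17:26508473-26508722, minus strand): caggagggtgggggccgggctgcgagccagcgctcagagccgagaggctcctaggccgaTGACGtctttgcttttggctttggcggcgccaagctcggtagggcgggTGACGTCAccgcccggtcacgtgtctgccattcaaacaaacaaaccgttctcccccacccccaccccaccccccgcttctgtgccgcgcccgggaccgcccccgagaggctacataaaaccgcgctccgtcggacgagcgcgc
Nr4a1 (chr15:101266596-101266845, plus strand): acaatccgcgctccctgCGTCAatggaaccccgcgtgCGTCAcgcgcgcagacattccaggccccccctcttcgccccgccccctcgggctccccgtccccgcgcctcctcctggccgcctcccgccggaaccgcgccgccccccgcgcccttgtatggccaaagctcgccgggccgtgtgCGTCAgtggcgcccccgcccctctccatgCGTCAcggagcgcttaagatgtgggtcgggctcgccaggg
The full CRE was found in the Dusp1 window, 143 bases upstream of the start, and is present in 1.55% of all 32817 windows of this length. The half-site, which is part of the full CRE, was found in 6 of the 8 members' windows (Atf3, Fosb, Junb, Fos, Nr4a1 and Dusp1) and in 17.7% of all windows. In Fos it lies 66 and 129 bases upstream, in Atf3 7 bases upstream and in Nr4a1 at 4 positions. The Jun-type site was found in Jun alone of these 8 members, 45 bases upstream, and in 2.93% of all windows. The AP-1 site TGAGTCA, searched on both strands, was in none of the 8 members' windows and in 4.46% of all windows. Of the other motifs searched, TATAAA on the forward strand was in Fos (7.60% of all windows), and the STAT site TTCNNNGAA and the CArG box, which SRF binds, were in Zfp36 (7.01% and 1.47% of all windows). These are matches of letters only, and sites outside the 250 bases were not searched, so a motif not found here may lie elsewhere. GENCODE M21 also lists models of Atf3, Dusp1, Nr4a1 and Zfp36 that begin further upstream.

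Each mouse had between 28009258 and 39266815 counts in all. Gab2 itself, the targeted gene, lay between 61.6 and 93.9 CPM (counts scaled to a common library size, with edgeR's TMM factors) in AML WT, between 50.8 and 55.8 in AML HET and between 35.0 and 47.2 in AML KO mice, in the order of the labels and without overlap. AML WT mouse 1 and AML KO mouse 1 were each the highest of the 8 mice for a large share of all genes (28.5% and 28.7%). Defining markers of erythroid, neutrophil, monocyte and megakaryocyte cells were counted in every mouse, which fits the labelled tissue. The labels describe each library as a separate mouse.

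The members spanned more than 100-fold in level. Per kilobase of exon, with all 8 mice averaged, Ier2 was the highest at 82.4 CPM, followed by Zfp36 at 32.3 and Junb at 25.3. Fos (8.54 CPM per kilobase), Atf3 (7.0), Jun (5.53) and Nr4a1 (5.14) formed a middle range, and Dusp1 (2.12) and Egr1 (0.545) were the lowest. In this order the lowest Ier2 value of any mouse was above the highest Zfp36 value, and the ranges over the 8 mice overlapped for all other neighbours. Compared within each mouse, Junb also stood above Fos, Nr4a1 above Dusp1 and Dusp1 above Egr1 in every mouse. Egr1 was covered by 33 to 172 counts per mouse and Dusp1 by 120 to 492, so counting error adds to their spread, while Ier2 and Zfp36 had at least 2743 counts in each mouse.

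**Figure D1:**
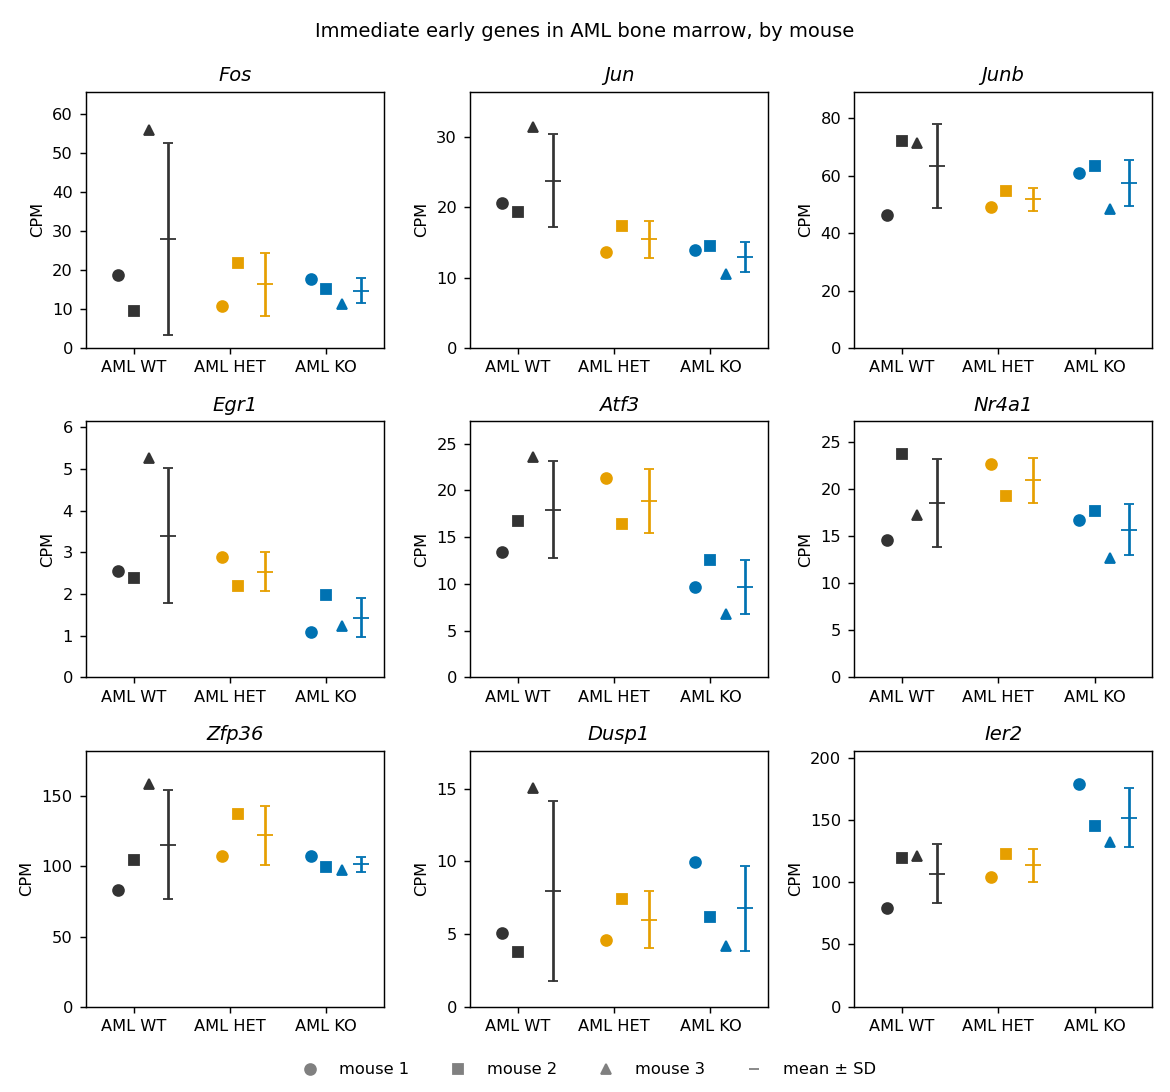
CPM of the 9 immediate early genes in each of the 8 mice (points, shaped by mouse number) with the mean ± SD of each Gab2 genotype (n = 3, 2 and 3); each vertical axis is linear, starts at 0 and has its own scale. AML WT mouse 3 (triangle) is the highest of all mice for Fos, Jun, Egr1, Atf3, Zfp36 and Dusp1, and all AML KO mice lie below all AML WT mice for Jun, Egr1 and Atf3 and above them for Ier2.

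Between AML KO and AML WT BM, none of the 9 members passed, against 2.09% of all 13305 genes. The threshold was a Benjamini-Hochberg adjusted p of 0.05 in edgeR's quasi-likelihood test, adjusted over the whole table. Jun, Atf3 and Egr1 had lower values in all 3 AML KO mice than in any AML WT mouse, with fitted levels 1.84-, 1.85- and 2.38-fold lower, and Ier2 had higher values in all 3, at 1.42-fold. The groups did not overlap for these 4 (background 22.1% of all genes in either direction, 9.83% lower and 12.3% higher). They also had an unadjusted p under 0.05 (background 17.7%, with 7.88% lower and 9.77% higher). With DESeq2 in place of edgeR, 3 members passed an adjusted p of 0.05 (Jun, Atf3 and Egr1, against 5.49% of all genes), and with limma-voom none did. Over the 9 members, 8 log2 fold changes were below 0 against 51.9% of all genes, with a median of −0.24 against −0.02.

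Jun (ENSMUSG00000052684, chr4:95049034-95052222, minus strand, GRCm38) encodes the main partner of Fos proteins in AP-1 and is the target of the JNK kinases. It was at 20.6, 19.3 and 31.4 CPM in AML WT mice 1, 2 and 3, at 13.6 and 17.3 in the AML HET mice and at 13.9, 14.5 and 10.5 in the AML KO mice. Every AML HET and every AML KO mouse was below every AML WT mouse, and AML HET and AML KO overlapped. The group means were 23.8 ± 6.66 (SD, n = 3), 15.5 ± 2.64 (SD, n = 2) and 12.97 ± 2.12 CPM (SD, n = 3). The log2 fold change of AML KO against AML WT was −0.88 (standard error 0.22, 95% interval −1.37 to −0.38), with an adjusted p of 0.0906 in edgeR's quasi-likelihood test and 0.0084 in DESeq2. For AML HET against AML WT it was −0.62 (standard error 0.25), with an adjusted p of 0.99 in the same edgeR fit. Without AML WT mouse 3 these values were −0.62 for AML KO and −0.36 for AML HET. An antisense gene not listed in the table, Junos, overlaps Jun exons on the opposite strand, and whether counting used the strand is not given in the sources used here.

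Fos (ENSMUSG00000021250, chr12:85473890-85477273, plus strand), the best known immediate early gene and a direct target of SRF and CREB, was at 18.7, 9.42 and 56.0 CPM in the AML WT mice, at 10.6 and 21.9 in the AML HET mice and at 17.7, 15.1 and 11.2 in the AML KO mice. AML WT mouse 3 was far above every other mouse and AML WT mouse 2 was the lowest of all 8, so the AML WT group enclosed both other groups. The means were 28.03 ± 24.7 (SD, n = 3), 16.3 ± 7.97 (SD, n = 2) and 14.7 ± 3.28 CPM (SD, n = 3). The log2 fold change of AML KO against AML WT was −0.93 (standard error 0.55, 95% interval −2.17 to 0.31, adjusted p = 0.373 in edgeR), similar in size to that of Jun with a standard error more than 2 times as large. Without AML WT mouse 3 it was 0.06. Against AML WT, AML HET was at −0.78 (standard error 0.63).

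Junb (ENSMUSG00000052837, chr8:84974484-84978718, minus strand), an AP-1 subunit that restrains the growth of myeloid progenitors in mice, was at 46.5, 72.3 and 71.5 CPM in AML WT, 49.0 and 54.6 in AML HET and 60.9, 63.3 and 48.4 in AML KO mice. The 3 groups overlapped, and AML WT mouse 1 was the lowest of all. AML KO differed from AML WT by −0.14 on the log2 scale (standard error 0.19, 95% interval −0.56 to 0.28). Junb exons overlap those of Prdx2 on the opposite strand, which is also in the table.

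Egr1 (ENSMUSG00000038418, chromosome 18, plus strand), a zinc finger factor induced through ERK and SRF that takes part in monocyte differentiation, was at 2.56, 2.37 and 5.27 CPM in AML WT, 2.87 and 2.20 in AML HET and 1.08, 1.97 and 1.24 in AML KO mice. Every AML KO mouse was below every other mouse, by a narrow margin between AML KO mouse 2 and AML HET mouse 2. The means were 3.40 ± 1.62 (SD, n = 3), 2.54 ± 0.478 (SD, n = 2) and 1.43 ± 0.473 CPM (SD, n = 3). With a log2 fold change of −1.25 from AML WT to AML KO (standard error 0.39, 95% interval −2.12 to −0.39), Egr1 was the farthest from 0 among the members, with an adjusted p of 0.167 in edgeR and 0.0499 in DESeq2. Without AML WT mouse 3 it was −0.79 (95% interval −1.59 to 0.01).

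Atf3 (ENSMUSG00000026628, chr1:191170296-191218039, minus strand), a stress-induced relative of CREB that dampens inflammatory transcription in myeloid cells, was at 13.4, 16.7 and 23.6 CPM in AML WT, 21.3 and 16.4 in AML HET and 9.61, 12.6 and 6.81 in AML KO mice. The AML HET mice lay within the AML WT range and all AML KO mice lay below both groups. The means were 17.9 ± 5.18 (SD, n = 3), 18.9 ± 3.45 (SD, n = 2) and 9.67 ± 2.89 CPM (SD, n = 3). From AML WT to AML KO the log2 fold change was −0.89 (standard error 0.27, 95% interval −1.50 to −0.29), with an adjusted p of 0.161 in edgeR and 0.0353 in DESeq2. From AML HET to AML KO it was −0.97 (standard error 0.30, adjusted p = 0.735 in edgeR). Without AML WT mouse 3 the difference between AML KO and AML WT was −0.64 (95% interval −1.23 to −0.05).

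Nr4a1 (ENSMUSG00000023034, chr15:101254269-101274795, plus strand), an orphan nuclear receptor needed for patrolling monocytes and known as a suppressor of myeloid leukemia in mice, was at 14.6, 23.7 and 17.2 CPM in AML WT, 22.6 and 19.2 in AML HET and 16.7, 17.7 and 12.6 in AML KO mice. AML KO mice were below both AML HET mice and overlapped with AML WT. Its log2 fold change was −0.24 between AML KO and AML WT (standard error 0.21, 95% interval −0.71 to 0.23) and −0.42 between AML KO and AML HET (standard error 0.23). It was the member that followed AML WT mouse 3 least, at 0.90 times the mean of the other AML WT mice.

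Zfp36 (ENSMUSG00000044786, chr7:28376784-28380253, minus strand) encodes tristetraprolin, which binds AU-rich elements and speeds the decay of cytokine and immediate early transcripts. It was at 83.1, 104.8 and 158.7 CPM in AML WT, 107.4 and 137.1 in AML HET and 107.2, 99.8 and 97.2 in AML KO mice. The AML KO mice lay close together inside the wide AML WT range. Against AML WT, its log2 fold change in AML KO was −0.19 (standard error 0.22, 95% interval −0.67 to 0.30) and 0.11 without AML WT mouse 3. An unlisted antisense gene, Gm44710, overlaps Zfp36 exons.

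Dusp1 (ENSMUSG00000024190, chr17:26505590-26562128, minus strand), the nuclear phosphatase that switches off p38, JNK and ERK, was at 5.06, 3.79 and 15.1 CPM in AML WT, 4.59 and 7.39 in AML HET and 9.94, 6.19 and 4.16 in AML KO mice. All groups overlapped, with AML WT mouse 3 highest and AML WT mouse 2 lowest, as for Fos. For AML KO against AML WT the log2 fold change was −0.24 (standard error 0.51, 95% interval −1.38 to 0.91) and 0.61 without AML WT mouse 3. Dusp1 exons overlap those of Ergic1 on the opposite strand, which is in the table.

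Ier2 (ENSMUSG00000053560, chr8:84661331-84662852, minus strand), a small nuclear protein of the growth factor response, was the member with the opposite pattern. It was at 79.6, 119.8 and 121.1 CPM in AML WT, 104.1 and 123.1 in AML HET and 178.6, 145.1 and 132.2 in AML KO mice. Every AML KO mouse was above every AML HET and AML WT mouse, and the latter groups overlapped. The means were 106.8 ± 23.6 (SD, n = 3), 113.6 ± 13.4 (SD, n = 2) and 152.0 ± 23.9 CPM (SD, n = 3). The log2 fold change of AML KO from AML WT was 0.51 (standard error 0.19, 95% interval 0.09 to 0.93), with an adjusted p of 0.228 in edgeR and 0.133 in DESeq2. It was 0.61 without AML WT mouse 3 and 0.32 without AML WT mouse 1, the lowest mouse.

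**Figure D2:**
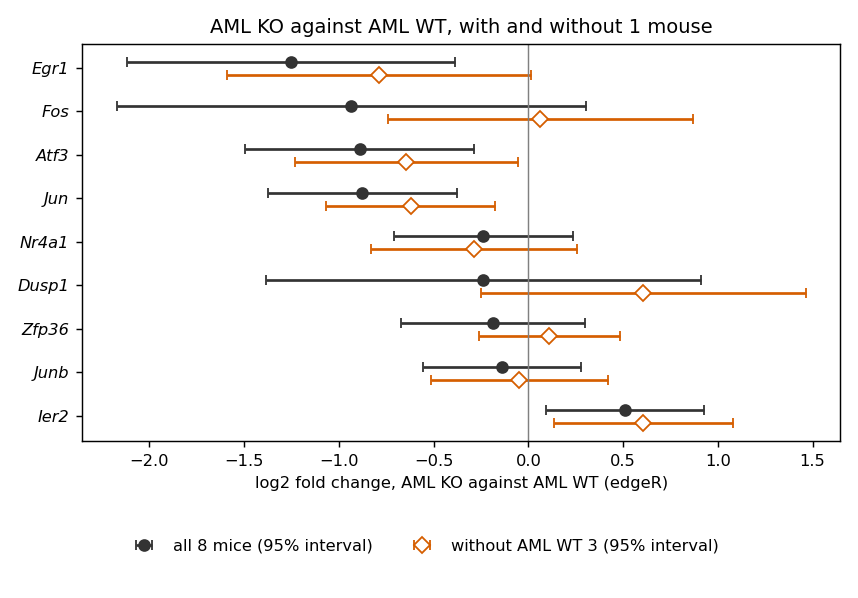
Fitted log2 fold change of AML KO against AML WT for each member, with 95% intervals, from all 8 mice (filled circles) and from the 7 mice left without AML WT mouse 3 (open diamonds). Without that mouse Fos, Dusp1 and Zfp36 lie above 0 at 0.06, 0.61 and 0.11, and Ier2 stays above 0. Jun, Egr1, Atf3, Junb and Nr4a1 stay below 0 at −0.62, −0.79, −0.64, −0.05 and −0.29.

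With 1 Gab2 allele lost, no member passed an adjusted p of 0.05 between AML HET and AML WT in edgeR (background 0.0225%), by DESeq2 (background 0.444%) or by limma-voom. At an unadjusted p under 0.05, Jun alone did, with a background of 2.47% (0.819% lower). Jun was also the single member without overlap between the groups, with a background of 18.1% (8.61% lower). In this comparison 5 members were below 0, against 51.5% of all genes, and 4 above, with a median of −0.29 against −0.01. AML KO was then set against AML HET. Again none passed by edgeR (background 0.0%), DESeq2 (background 0.579%) or limma-voom, and at an unadjusted p under 0.05 there was 1, Atf3, against 5.86% of all genes (2.34% lower). Here 6 members were below 0, against 49.9% of all genes. The groups did not overlap for 5 of the 9 members (Egr1, Atf3, Nr4a1 and Zfp36 lower and Ier2 higher in AML KO), against 24.2% of all genes (11.0% lower and 13.2% higher). For Zfp36 the groups all but touched, with AML KO mouse 1 at 107.2 CPM and AML HET mouse 1 at 107.4 (log2 fold change −0.27, standard error 0.24). The 3 comparisons share mice, so their directions are not independent of each other. For Jun, the AML HET mean lay between those of the other groups but nearer to AML KO, and for Atf3 it lay with AML WT. For Egr1 it lay about midway in CPM. On the fitted log2 scale Egr1 in AML HET was nearer to AML WT, at −0.42, with AML KO at −0.83 from AML HET. Without AML WT mouse 3, Egr1 in AML HET was at 0.05 from AML WT. Whether the 2 AML HET mice differ from an intermediate level was not tested.

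The members differed widely in how much mice of 1 genotype varied. The SD of log2 CPM within genotypes, pooled over the 3 groups, was 0.91 for Fos and 0.80 for Dusp1, at the 98.2 and 97.1 percentiles of all genes. Egr1 followed at 0.50, Atf3 at 0.40, Zfp36 at 0.32, Jun at 0.31 and Nr4a1 at 0.29, with Ier2 and Junb both at 0.27. All 9 members lay above the median of all genes (0.24). Of the variance of log2 CPM over the 8 mice, 70.5% lay between genotypes for Jun, 67.4% for Atf3, 63.4% for Egr1 and 54.9% for Ier2, compared with 11.9% for Fos and 1.26% for Dusp1 and a median of 31.8% over all genes. Fos and Dusp1 thus varied mostly among mice of the same genotype, and Jun, Atf3 and Egr1 mostly between genotypes.

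**Figure D3:**
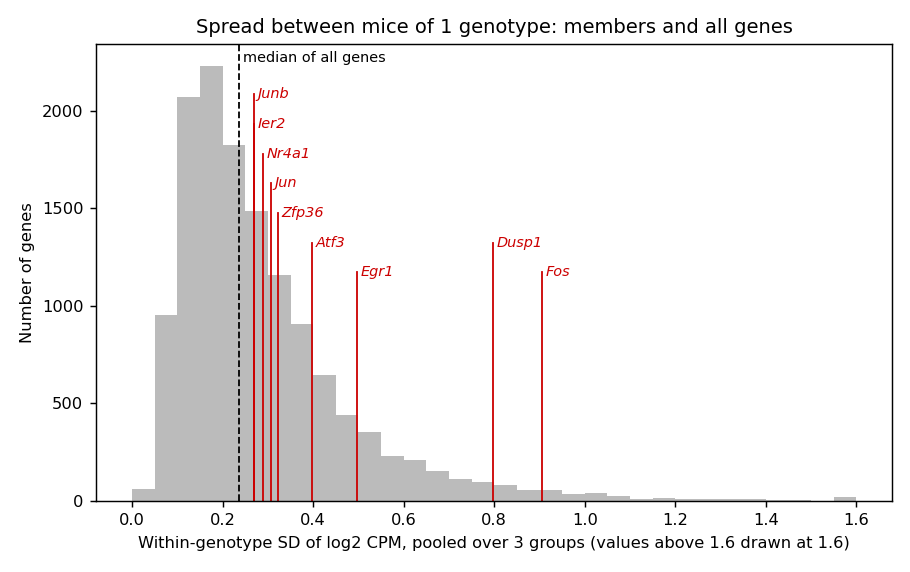
Number of genes (vertical axis) by the within-genotype SD of log2 CPM, pooled over the 3 groups (horizontal axis), for all 13305 genes in grey, with the 9 members as red lines and the median of all genes as a dashed line at 0.24. Fos (0.91) and Dusp1 (0.80) lie far in the right tail, and the other 7 members lie between 0.27 and 0.50.

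For most members AML WT mice ranged more widely than AML KO mice. The highest AML WT mouse exceeded the lowest 5.94-fold for Fos and 3.97-fold for Dusp1, and in AML KO mice the same ratios were 1.58 and 2.39. The range was wider in AML WT than in AML KO for 8 of the 9 members, Atf3 being the exception, against 47.0% of all genes. AML WT mouse 3 was the highest of all 8 mice for 6 members (Fos, Jun, Egr1, Atf3, Zfp36 and Dusp1), while it was the highest for 7.89% of all genes. Relative to the mean of AML WT mice 1 and 2, it was 3.98-fold for Fos, 3.40-fold for Dusp1, 2.14-fold for Egr1, 1.69-fold for Zfp36, 1.58-fold for Jun and 1.56-fold for Atf3. A ratio of 2 or more was reached by 3 of the 9 members and by 2.61% of all genes. In AML KO, mouse 3 was the lowest of its group for 8 of the 9 members, Ier2 included. The exception was Egr1, which was lowest in AML KO mouse 1. The matching share of all genes within the group was not computed. Of all 8 mice, AML KO mouse 3 was the lowest for 3 members and for 7.72% of all genes.

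Values that moved with AML WT mouse 3 were looked up in lists of related genes. Of 92 other early response, AP-1, paralog, upstream and heat shock genes, 4 reached 2 times the other AML WT mice in it: Nr4a3 (4.16-fold), Il1b (3.38-fold), Batf2 (2.67-fold) and Batf3 (2.18-fold). Hspa1b, a heat shock gene that handling also induces, was at 0.934, 0.948 and 1.71 CPM in the AML WT mice and at 0.678 to 1.43 in the others. The summed level of the 10 heat shock genes was 5947 to 6391 CPM in AML WT, 6002 to 6396 in AML HET and 5416 to 5842 in AML KO mice. The summed level of the 18 mature neutrophil markers was also highest in mouse 3 among AML WT mice (1940, 3429 and 5550 CPM). So were the sums of erythroid (342, 381 and 476 CPM) and B cell markers (58.1, 95.9 and 106 CPM). The T and NK cell (117, 124 and 166 CPM) and stem and progenitor sums (943, 919 and 1004 CPM) were too. Monocyte, macrophage, megakaryocyte and platelet, eosinophil, basophil and mast cell, and stroma and endothelium sums were highest in AML WT mouse 1 or 2. The part of tissue handling or of cell makeup in the high values of this mouse was not tested.

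The nearest relatives of the members, 12 listed paralogs, had a summed level of 427 to 524 CPM per mouse, and the members one of 284 to 500 CPM. Of 12 listed paralogs, none passed an adjusted p of 0.05 between AML KO and AML WT in edgeR (background 2.09%) or limma-voom. In edgeR 4 had an unadjusted p under 0.05 (background 17.7%), and DESeq2 called 2 (Nr4a3 and Dusp16, background 5.49%). The median of the 12 was −0.15, and in 6 of 12 all AML KO mice were below all AML WT mice (background 9.83%). Nr4a3, the sister receptor of Nr4a1, was at 2.48, 1.52 and 8.33 CPM in AML WT and at 0.654, 1.49 and 0.707 in AML KO mice (log2 fold change −2.12, standard error 0.72). Egr2, a relative of Egr1 that also acts in macrophages, was at 2.56, 3.54 and 2.6 in AML WT and at 0.523, 2.04 and 0.501 in AML KO mice (−1.52, standard error 0.52). Zfp36l1, an RNA decay factor like Zfp36, was at 11.5, 11.6 and 11.1 in AML WT and at 4.19, 8.99 and 6.34 CPM in AML KO mice (−0.81, standard error 0.26). Neither Egr2 nor Zfp36l1 was highest in AML WT mouse 3 among the AML WT mice. Without AML WT mouse 3 the log2 fold change of Nr4a3 was −1.08, and that of Egr2 was −2.49 without AML KO mouse 2.

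**Figure D4:**
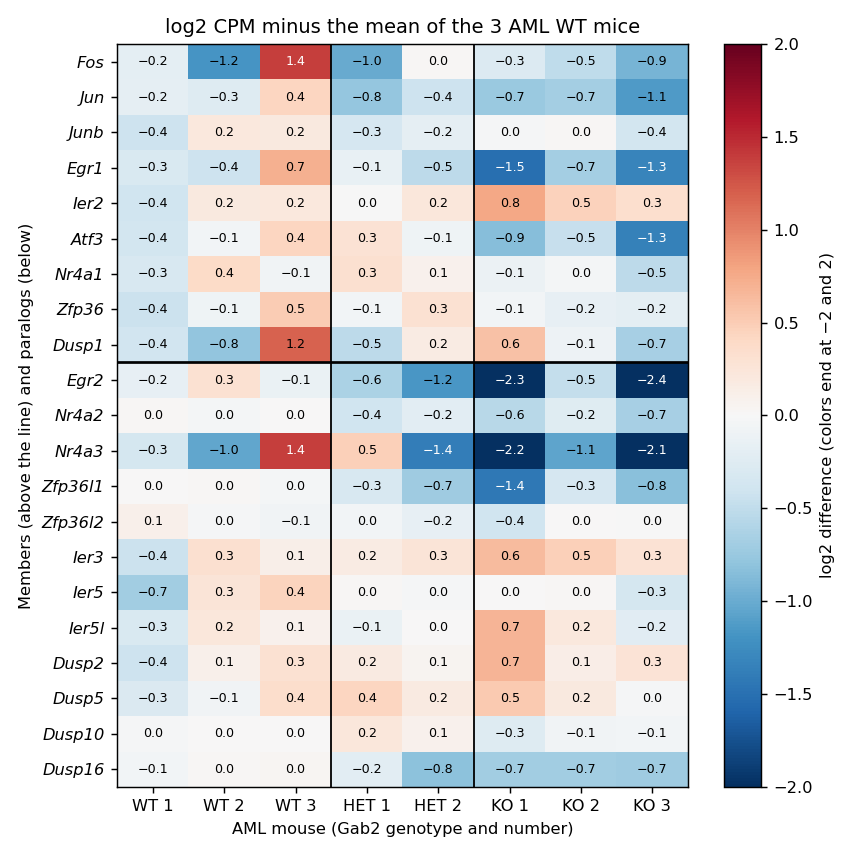
Difference of each mouse (columns) from the AML WT mean on the log2 CPM scale for the 9 members and their listed paralogs (rows), coloured from blue (lower) to red (higher). The column of AML WT mouse 3 is high for Fos (1.38), Dusp1 (1.18) and Egr1 (0.72), and the AML KO columns are low for Jun, Egr1 and Atf3 and high for Ier2.

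Of 13 other AP-1 subunits, 1 passed the test (background 2.09% of all genes). Jdp2, a repressor that pairs with Jun and binds the same sites, rose in AML KO. It was at 15.3, 16.9 and 14.5 CPM in AML WT and at 24.7, 27.5 and 21.7 in AML KO mice, without overlap (log2 fold change 0.66, standard error 0.14, adjusted p = 0.0488 in edgeR's quasi-likelihood test). This call was lost in all 8 fits that left out a mouse, with an adjusted p of up to 0.136. The median of the AP-1 subunits was 0.05, and the next in size, Batf3 and Atf7, were at −0.63 and −0.55 with overlapping groups (−0.15 for Batf3 without AML WT mouse 3 and −0.22 for Atf7 without AML WT mouse 1). Of 36 other early response genes, none passed in edgeR or limma-voom, with a median of 0.05. In edgeR 11 had an unadjusted p under 0.05 (background 17.7%). DESeq2 called 2, a share close to that of all genes (5.49%). Those 2 were higher in all AML KO mice: Ppp1r15a (GADD34), which restores translation after stress, was at 7.38, 11.3 and 13.04 CPM in AML WT and at 54.9, 21.3 and 24.9 in AML KO mice (1.67, standard error 0.42, adjusted p = 0.0882 in edgeR), and Gadd45a, a growth arrest gene, was at 3.52, 6.89 and 6.61 and at 19.8, 9.83 and 13.3 CPM (1.34, standard error 0.32, adjusted p = 0.0759 in edgeR). Plk2, a p53-responsive kinase, was at −0.98 (standard error 0.40) with overlapping groups.

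The kinases and factors that act upstream of the members were close to level. Of 21 such genes, none passed between AML KO and AML WT by edgeR, DESeq2 or limma-voom, and the median was −0.07. In edgeR 3 had an unadjusted p under 0.05, against 17.7% of all genes. The values farthest from 0 were −0.58 for Rps6ka3 (the kinase RSK2, standard error 0.21), 0.48 for Elk4, an SRF partner (standard error 0.20), and −0.45 for Rps6ka5 (the kinase MSK1, standard error 0.22). Of 10 heat shock genes, none passed by any of these tools and none had an unadjusted p under 0.05, with a median of −0.14 and Hspa1b (−0.47), Hsph1 (−0.34) and Hsp90aa1 (−0.21) farthest from 0. In the comparisons that involve AML HET, none of the genes in these 5 lists passed by any of the 3 tools. At an unadjusted p under 0.05 there was 1 for AML HET against AML WT, an upstream gene (background 2.47%), and 4 for AML KO against AML HET (background 5.86%).

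Markers of several mature cell types rose in AML KO BM. Called here means an adjusted p under 0.05 in edgeR, against 2.09% of all genes (17.7% at an unadjusted p under 0.05, 5.49% with DESeq2). For mature neutrophil markers the median log2 fold change was 2.11 against AML WT (18 of 18 above 0, 10 called, among them Ngp and S100a9). For megakaryocyte and platelet markers it was 2.94 (15 of 15 above 0, 14 called, among them Itga2b). For erythroid markers it was 3.61 (18 of 18 above 0, 16 called, among them the globins Hbb-bs and Hba-a1). Summed neutrophil markers were at 1940 to 5550 CPM in AML WT and at 11930 to 18939 in AML KO mice, and summed erythroid markers at 342 to 476 and at 1651 to 5705 CPM. Monocyte markers, from a lineage in which immediate early genes are readily induced, had a median of −0.30, with 13 of 14 below 0 (background 51.9% of all genes). None of the 14 passed (5 at an unadjusted p under 0.05, 2 by DESeq2). For 4 of them all AML KO mice were below all AML WT mice (background 9.83%). The monocyte sums were 6733 to 7447 CPM in AML WT and 5234 to 6888 in AML KO. In the other lists, 5 of 8 basophil and mast cell and 2 of 5 eosinophil markers were called higher (8 and 4 were above 0). So were 3 of 15 stem and progenitor and 1 of 14 stroma and endothelium markers (12 and 8 were above 0). Of 12 macrophage markers 3 were called higher and 2 lower, Mrc1 among the latter (8 were above 0 and 4 below). None of the 12 B cell or 16 T and NK cell markers passed (0 and 3 at an unadjusted p under 0.05, 0 by DESeq2). In bulk RNA, fewer cells of a type and less of a transcript per cell cannot be told apart, and the part of cell makeup in the values of Jun, Egr1, Atf3 and Ier2 was not tested.

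Over the 8 mice, the mean of the members (each scaled to unit variance) was followed most closely by Adora2b (Pearson's r = 0.95), Nfkbie (0.94) and Clec4b1 (0.94), then by Tmem173, Ckb, Trim7, Fh1, Ifi30, H2-DMa and Nrros (0.91 to 0.93). Among the members, Zfp36 (0.86) and Jun (0.80) followed their common mean most closely and Ier2 (0.13) the least. Each member is part of that mean, which raises its value. With genotype means subtracted, Ier2 was at 0.77 and Nr4a1 at 0.38. Ier2 thus moved with the common mean between mice of 1 genotype, while it differed from the other members between genotypes. The 10 genes closest to the members were then led by Tnfsf14 (0.99), and 1 of them, H2-DMa, was on both lists. All these points share the same 8 libraries, with AML WT mouse 3 at one end and AML KO mouse 3 near the other, and describe these mice only.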

How the data were processed

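The authors sequenced whole BM of 8 mice as 1 library each, and raw counts per gene were deposited without normalization. The submitters' processing notes name Trimmomatic 0.36, STAR 2.5.2b and mm10. The counting tool, its annotation and its strand setting are not given in the sources used here. The table holds 13305 genes, of which 13266 matched a GENCODE M21 symbol (GRCm38), and 28009258 to 39266815 counts per mouse. Members and gene lists were chosen with earlier results of these data known.

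Counts were fitted in R 4.3.3 with edgeR 4.0.16 (TMM, filterByExpr, robust quasi-likelihood test, all 8 mice, genotype as the only term). P-values were adjusted over all genes with the Benjamini-Hochberg method at a threshold of 0.05, and standard errors were derived from the F statistic. Log2 CPM used a prior count of 2. Tested on simulated counts for AML KO against AML WT over 13305 genes, the fit found 59 of 100 genes changed 2-fold and 94 of 100 changed 4-fold, with 7 unchanged genes called. Alternatives were DESeq2 1.42.0, limma-voom 3.58.1, other normalizations and filters, fits of only the groups compared, a non-robust fit, a replicate block and leaving out each mouse. All members were named. Of each list, genes past the threshold and the 3 with the largest fold change from AML WT to AML KO were named, and of cell types the most abundant markers (at most 2), with Dusp16, Nr4a3's fold in AML WT mouse 3, Il1b and Batf2 added after their values were seen. Promoter windows came from RefSeq. Figures used Python 3.11.15, pandas 2.3.3 and matplotlib 3.10.9.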

Additional observations from a re-analysis of the deposited data

How the results depend on the processing

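No member changed sign under the 9 alternatives other than leaving out single mice, and members gained an adjusted p under 0.05 only with DESeq2, which called 3 between AML KO and AML WT. The number of genes called moved more. Between AML KO and AML WT it was 278, 730 with DESeq2 and 40 to 370 when 1 mouse was left out. Between AML HET and AML WT it was 3, 59 with DESeq2, 1 with limma-voom, 5 with only the groups compared and 1 to 5 when 1 mouse was left out. For AML KO against AML HET it was 0 (780 at an unadjusted p under 0.05), 77 with DESeq2, 3 with only the groups compared and 0 to 4 when 1 mouse was left out. The cause of these differences between tools was not tested.

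With the mouse number as a replicate block, 19 genes were called for AML KO against AML WT, 0 in either comparison with AML HET, and no member in any. The deviations from group means of AML WT and AML KO mice with the same number correlated at −0.51, −0.11 and −0.13. For AML WT and AML HET mice the values were 0.08 and 0.29, and for AML HET and AML KO mice −0.14 and −0.04. Deviations within a group sum to 0, so these values cannot decide whether mice of the same number belong together.

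Leaving out 1 mouse reversed 17 log2 fold changes, all of members with 95% intervals that include 0 when all 8 mice are fitted. For AML KO against AML WT the range was −1.35 to 0.063 for Fos, −0.39 to 0.11 for Zfp36 and −0.62 to 0.61 for Dusp1, each with its highest value without AML WT mouse 3. Between AML HET and AML WT it was −1.40 to 0.22 for Fos, −0.63 to 0.052 for Egr1, −0.082 to 0.20 for Ier2, −0.12 to 0.33 for Atf3, −0.11 to 0.39 for Zfp36 and −0.79 to 0.45 for Dusp1. For AML KO against AML HET it was −0.58 to 0.47 for Fos and −0.21 to 0.56 for Dusp1. Jun, Egr1, Atf3, Ier2, Junb and Nr4a1 kept their direction between AML KO and AML WT in every such fit. Junb and Nr4a1 did so with values as near to 0 as −0.03 and −0.02. The prior count and the normalization of log2 CPM left the median spread of the members at 0.32. The lowest counts per mouse were 33 for Egr1 and 120 for Dusp1, where counting error is largest.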
